A study of Mus musculus with 8 samples.

Results

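The genes described here are 8 that mark brown fat thermogenesis or encode uncoupling proteins: Ucp1, Ucp2, Ucp3, Cidea, Elovl3, Dio2, Adrb3 and Prdm16. They were found by gene symbol among the array's non-control probes, which gave 10 probes of 41174 and 8 genes of 21377 with a symbol. Ucp2 had 3 probes and each other gene had 1. Hearts of 4 mice overexpressing PKR2, read here as prokineticin receptor 2, were compared with hearts of 4 wild-type (WT) mice. All were males aged 12 weeks, and each heart was put on its own 1-colour Agilent array. The promoter and cell type that drive PKR2, the strain and the part of the heart that was taken are not given in the sources used here. Hearts are called WT 1 to WT 4 and PKR2 1 to PKR2 4. These numbers only name hearts and pair none of them.

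Brown adipocytes burn fuel for heat. The protein UCP1 lets protons return across the inner mitochondrial membrane without making ATP, so that the energy of respiration is released as heat. The signal starts with noradrenaline acting on beta-adrenergic receptors, runs through cyclic AMP and protein kinase A, and leads to lipolysis and to transcription of Ucp1 and of Dio2, the deiodinase that makes active thyroid hormone inside the cell. UCP2 and UCP3 resemble UCP1 in sequence but are not established sources of heat. UCP2 is found in many tissues and UCP3 mainly in skeletal muscle, heart and brown fat. Adipose tissue lies on and around the heart, and a heart sample can hold some of it.

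Upstream sequences are shown for 4 of these genes as a description. In the results below Ucp1 and Dio2 were low in the same hearts, while the neighbouring genes Ucp3 and Ucp2 followed other orders. RefSeq's table for GRCm38.p6 had an entry for 5 of the 8 genes. It had none for Cidea, Elovl3 and Adrb3, and the sequence of Prdm16 is not shown. Whether these sequences bear on the levels was not tested. Each line holds the 250 bases before the annotated start, 5′ to 3′ on the gene's strand, and capitals mark the motifs found. Ucp1 is at chr8:83290098-83290347 (plus strand), Dio2 at chr12:90739039-90739288 (minus), Ucp3 at chr7:100472741-100472990 (plus) and Ucp2 at chr7:100493108-100493357 (plus).
Ucp1: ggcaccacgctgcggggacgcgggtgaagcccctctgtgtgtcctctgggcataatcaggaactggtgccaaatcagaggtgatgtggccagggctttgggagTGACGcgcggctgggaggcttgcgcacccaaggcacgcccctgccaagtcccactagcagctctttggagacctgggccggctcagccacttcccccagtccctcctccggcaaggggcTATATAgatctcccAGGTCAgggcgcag
Dio2: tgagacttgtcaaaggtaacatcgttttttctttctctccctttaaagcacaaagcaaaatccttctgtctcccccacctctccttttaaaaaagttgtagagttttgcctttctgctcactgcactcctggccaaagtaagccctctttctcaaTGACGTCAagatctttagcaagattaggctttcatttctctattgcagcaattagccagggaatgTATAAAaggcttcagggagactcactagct
Ucp3: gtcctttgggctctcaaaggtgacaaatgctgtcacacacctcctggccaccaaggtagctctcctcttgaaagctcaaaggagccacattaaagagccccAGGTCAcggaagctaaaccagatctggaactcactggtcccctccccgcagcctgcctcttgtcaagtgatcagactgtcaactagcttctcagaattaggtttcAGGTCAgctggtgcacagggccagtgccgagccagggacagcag
Ucp2: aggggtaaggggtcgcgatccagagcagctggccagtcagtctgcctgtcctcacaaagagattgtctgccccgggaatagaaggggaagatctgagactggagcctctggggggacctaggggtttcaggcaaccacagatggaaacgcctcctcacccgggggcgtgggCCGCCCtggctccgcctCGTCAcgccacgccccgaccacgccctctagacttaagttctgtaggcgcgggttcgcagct

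The motifs searched, on both strands, were the TATA box TATAAA, its variant TATATA, the cyclic AMP response element TGACGTCA, its core TGACG, the nuclear receptor motif AGGTCA and the GC box GGGCGG. In all 32851 upstream windows of the table they occurred in 12.4%, 5.25%, 1.55%, 17.8%, 14.0% and 32.7%. The Ucp1 window held TATATA 28 bases before the start, TGACG at 147 and AGGTCA at 14. The Dio2 window held TATAAA at 30 and the full TGACGTCA at 95, which contains TGACG on both strands. The Ucp3 window held AGGTCA at 149 and 44, and neither TATA form. The Ucp2 window held TGACG at 62 and GGGCGG at 79, both on the minus strand. Ucp3 is the nearest protein-coding gene before Ucp2 in the table. These are matches of letters, not shown sites.

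A level is the log2 signal of a probe minus the 75th percentile of its own array, so that 0 is that percentile, and levels are compared between hearts and not between probes. Differences are PKR2 minus WT on the log2 scale. Between 48.3% (WT 2) and 67.1% (PKR2 1) of an array's spots were well above background, and the 75th percentile of processed signal ran from 38.1 (WT 2) to 736 (PKR2 1). The median margin of the 95% interval over the 22717 probes tested was 0.48, which the number of arrays limits. No probe passed limma's adjusted p of 0.05 (0.00% called; smallest adjusted p = 0.0925), while 575 had an unadjusted p under 0.05. The 8 arrays lay on 6 slides. Slide 5 held WT 3 and PKR2 3, slide 6 held WT 4 and PKR2 4, and the other slides held 1 array each. WT 2, WT 4 and PKR2 4 had a single scan range, and the remaining arrays an extended one. The labelled tissue was checked on cardiomyocyte genes. All 12 on the list were bright enough to be tested, among them the myosin genes Myh6 (9.02 ± 0.27 in WT and 9.06 ± 0.31 in PKR2 hearts; SD, n = 4) and Myl2 (9.47 ± 0.28 and 9.56 ± 0.34). Of the 12 genes, 11 had a higher and 1 a lower mean in PKR2 hearts, where 51.9% of all features with 1 probe per gene were lower. The median difference of the 12 was 0.08, and none had an unadjusted limma p under 0.05.

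Of the 10 probes, 8 were tested, covering 7 genes. Each of these 8 was well above background on at least 3 arrays of both groups. None of them passed the adjusted threshold (adjusted p = 1 for each by limma, Benjamini-Hochberg over all tested probes). The mean was lower in PKR2 hearts for 6 of the 8, against 48.0% of all tested probes, and higher for both tested Ucp2 probes. Unadjusted p-values under 0.05 were reached by 3 of the 8, Ucp1, Cidea and Dio2, all lower in PKR2 hearts, against 1.25% of all tested probes in that direction and 2.53% in either. No probe of the 8 separated the groups without overlap, against 1.81% of all tested probes. Less RNA per cell and fewer cells of a type in the sample cannot be told apart in these bulk measurements. Where a slide held 1 array, heart and slide cannot be told apart either.

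Ucp1 itself was well above background on all 8 arrays. Its probe lies at chr8:86187994-86188053 (mm8, the build of all probe positions here; the files do not say which part of the transcript it covers). The level was 6.03, 5.09, 4.26 and 6.16 in WT 1 to WT 4 and 1.58, 0.30, 5.04 and 4.01 in PKR2 1 to PKR2 4. PKR2 1 and PKR2 2 lay far below the other hearts, PKR2 4 lay just below the lowest WT heart, and PKR2 3 fell inside the WT range. The means were 5.38 ± 0.89 in WT and 2.73 ± 2.18 in PKR2 hearts (SD, n = 4), a difference of -2.65 (SE 0.93, 95% interval -4.74 to -0.56), or 6.28-fold. Limma's p was 0.018 (adjusted p = 1) and the two-sided exact permutation p 0.0571, where 4 against 4 cannot go below 0.0286. From the lowest to the highest heart Ucp1 spanned 5.87 log2 units, or 58.4-fold, and its SD over the 8 hearts exceeded that of 99.9% of tested probes. The groups did not differ in the same direction on the slides that held both: PKR2 minus WT was 0.78 on slide 5 and -2.15 on slide 6.

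Cidea encodes a lipid droplet protein abundant in brown adipocytes, and its probe maps to chromosome 18 (67493066 to 67493125). Its level was 7.47, 7.06, 6.09 and 6.98 in WT 1 to WT 4 and 5.06, 5.16, 6.14 and 5.85 in PKR2 1 to PKR2 4. All PKR2 hearts except PKR2 3 lay below the lowest WT heart, WT 3. The means were 6.90 ± 0.58 and 5.55 ± 0.53, a difference of -1.35 (SE 0.33, interval -2.09 to -0.60), 2.54-fold. This was the smallest unadjusted p among the 8 tested probes (limma p = 0.00249, adjusted p = 1; exact permutation p = 0.0571). Within slide 5 the hearts differed by 0.047 and within slide 6 by -1.13.

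Elovl3 encodes an elongase of very long chain fatty acids that is strongly induced in brown fat by cold. Its probe lies at chr19:46188583-46188642. Its level was 0.62, -0.42, -2.71 and 0.54 in WT 1 to WT 4 and -4.67, -6.08, 0.48 and -1.40 in PKR2 1 to PKR2 4, with PKR2 2 not well above background. WT 3 was low among the WT hearts, and PKR2 3 lay just below WT 4. The groups overlapped, and the difference of -2.43 (SE 1.33) had an interval that included 0 (-5.40 to 0.55, limma p = 0.0986, exact permutation p = 0.20). Over the 7 hearts where it was well above background Elovl3 spanned 5.29 log2 units, or 39.0-fold. In other values of the same arrays the span was smaller, even over all 8 hearts. It was 12.0-fold with normexp background correction and 11.8-fold in the authors' deposited table. The group difference was smaller too: it was -1.05 with normexp background correction and -0.75 in the authors' deposited table. Within slide 5 the difference was 3.18, within slide 6 -1.95, and without PKR2 2 it was -1.38.

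Dio2 encodes type 2 deiodinase, and its probe lies at chr12:91130186-91130245 (minus strand). Its level was 0.18, 0.34, -1.28 and 0.79 in WT 1 to WT 4 and -1.55, -1.61, -0.52 and -0.72 in PKR2 1 to PKR2 4. PKR2 1 and PKR2 2 were the lowest hearts, followed by WT 3. The means were 0.0066 ± 0.90 and -1.10 ± 0.56, a difference of -1.11 (SE 0.44, interval -2.08 to -0.13), 2.16-fold, with limma p = 0.0298, adjusted p = 1 and exact permutation p = 0.0857. Within slide 5 it was 0.76 and within slide 6 -1.51. Fitted with slide as a random block, the differences were -1.96 for Ucp1, -1.07 for Cidea, -1.36 for Elovl3 and -0.85 for Dio2. A fixed slide block, in which slides 5 and 6 alone carry the contrast, gave -0.68, -0.54, 0.62 and -0.37, so the sign of Elovl3 changed. The unadjusted limma p under 0.05 was then lost by all of Ucp1 (0.278), Cidea (0.115) and Dio2 (0.454), and with the random block by Dio2 (0.0674) but not by Ucp1 (0.0403) or Cidea (0.00708).

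**Figure D1:**
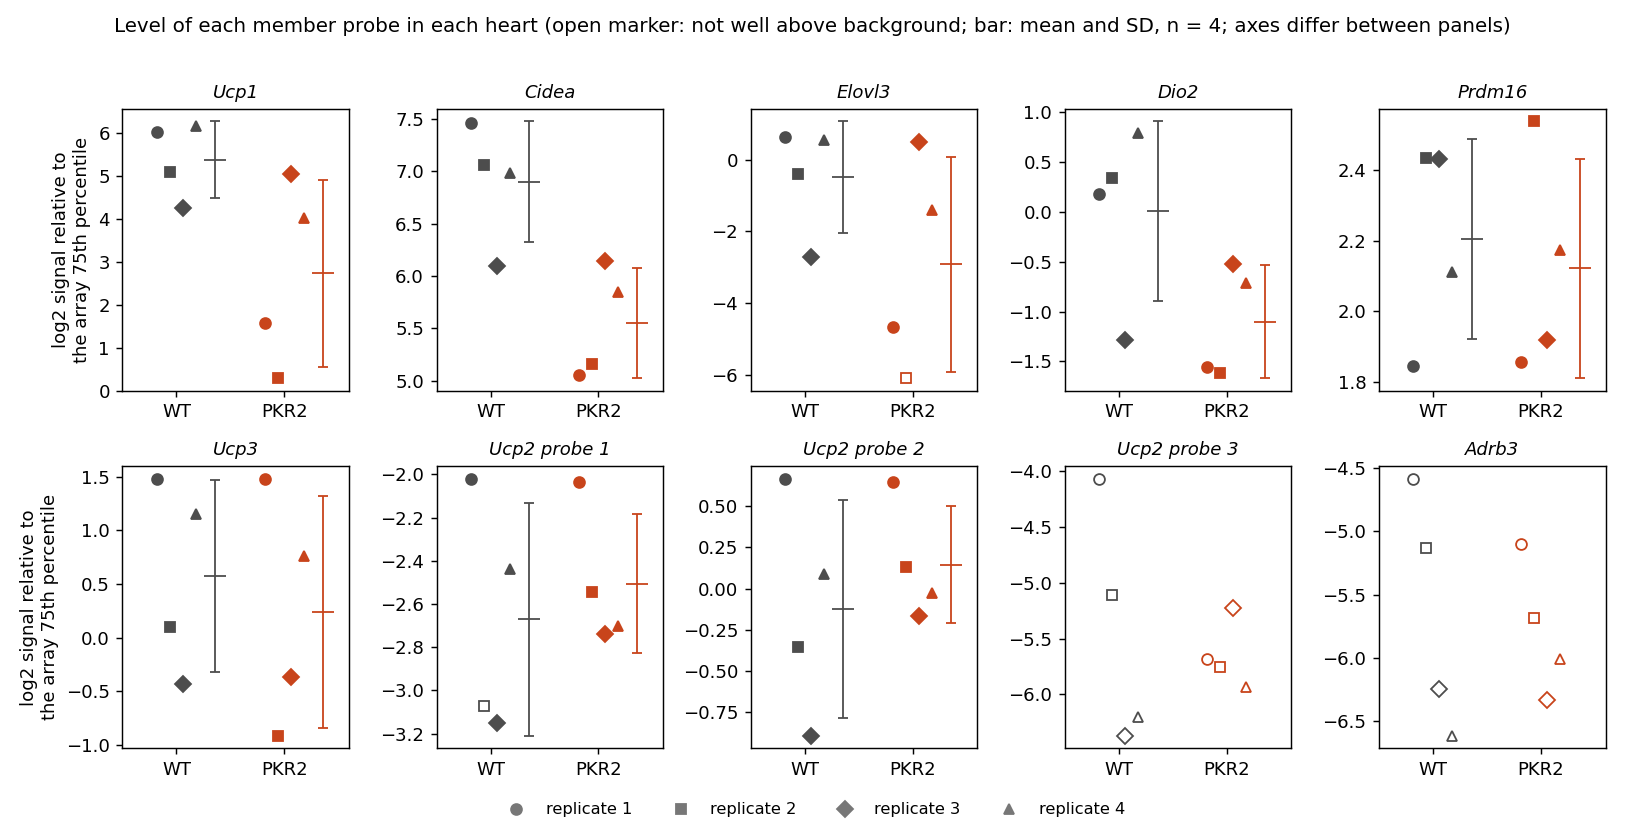
Each panel plots 1 probe, with the level (log2 signal minus the array's 75th percentile) on the vertical axis and a marker for each heart; axes differ between panels, open markers were not well above background, and bars are mean and SD (n = 4). Ucp1, Cidea, Elovl3 and Dio2 were low in PKR2 1 and PKR2 2, while the groups of Prdm16, Ucp2 and Ucp3 spread over similar levels.

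Adrb3 encodes the beta-3 adrenergic receptor, the receptor through which noradrenaline acts on rodent brown fat. Its probe, assigned to a splice variant transcript at chr8:28692781-28693200, was too dim to count as well above background on each of the 8 arrays, so no fold is given. The measured signals ran from -6.61 to -4.59 in WT and from -6.33 to -5.10 in PKR2 hearts. Other steps of the adrenergic pathway were measured, and all 12 genes on an adrenergic lipolysis list were tested. Of these, 10 had a lower and 2 a higher mean in PKR2 hearts. Their median was -0.30, against -0.0079 over all 15657 features with 1 probe per gene, of which 51.9% were lower. By unadjusted p 3 were under 0.05, all of them lower, against 1.41% of those features in that direction (2.32% in either), and none was after adjustment over all probes. On slide 5 the list's median was 0.19, on slide 6 -0.31, and the fixed slide block gave -0.10. The 4 of smallest p were Prkar2b, a regulatory subunit of protein kinase A (-2.01), Pnpla2, the lipase that starts triglyceride breakdown (-0.55), Plin1, the lipid droplet coat protein (-2.18), and Lipe, hormone-sensitive lipase (-0.57). Plin1 and Lipe are also on the general adipocyte list below, so the 2 lists are not separate evidence. Prkar2b was lowest in PKR2 1 (1.30) and PKR2 2 (1.62), against 3.19 to 4.98 in the other 6 hearts.

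Prdm16 encodes a transcriptional coregulator that directs precursors to the brown fat fate. The file places its probe on chromosome 4 and gives only 5 bases of position (153159925 to 153159929). Its level was 1.84, 2.43, 2.43 and 2.11 in WT 1 to WT 4 and 1.85, 2.54, 1.92 and 2.18 in PKR2 1 to PKR2 4. The groups covered similar levels, and PKR2 2, the heart with the lowest Ucp1, had the highest Prdm16. The difference was -0.084 (interval -0.55 to 0.39; limma p = 0.699, exact permutation p = 0.743), and its sign changed under several settings given in the closing section. Prdm16 spanned 0.70 log2 units over the 8 hearts, below the median of 0.89 for tested probes. Among 17 tested genes of a brown fat regulator list, 12 had a lower and 5 a higher mean in PKR2 hearts, where 51.9% of all features were lower. Their median was -0.07, with -0.09 within slide 5, 0.04 within slide 6 and 0.037 with the fixed slide block. The 1 gene with an unadjusted p under 0.05 (2.32% of all features) was Pparg, the nuclear receptor that governs adipocyte differentiation. Pparg was 2.42 ± 0.32 in WT and 1.72 ± 0.44 in PKR2 hearts (-0.70). It was followed by the adipogenic factor Cebpa (-0.82), Zfp516, a zinc finger regulator of Ucp1 (0.18), and the transcription factor Irf4 (-0.47, well above background on 5 of 8 arrays). Lhx8 and Bmp8b were not well above background on any array and Zic1 on only 1.

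Ucp3 encodes the uncoupling protein of muscle and heart, and its probe lies at chr7:100359864-100359923. Its level was 1.48, 0.10, -0.43 and 1.15 in WT 1 to WT 4 and 1.48, -0.91, -0.37 and 0.77 in PKR2 1 to PKR2 4. High and low hearts occurred in both groups: WT 1 and PKR2 1 shared the highest level and PKR2 2 was lowest. The difference was -0.33 (SE 0.57, interval -1.60 to 0.93; limma p = 0.568, exact permutation p = 0.629), and it was 0.050 without PKR2 2. The SD of Ucp3 over the 8 hearts nevertheless exceeded that of 98.2% of tested probes. PKR2 1 is the clearest contrast with Ucp1, being among the highest hearts for Ucp3 and second lowest for Ucp1.

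Ucp2 encodes the widely expressed uncoupling protein. Probe 1 (chr7:100370854-100370913) read -2.02, -3.07, -3.15 and -2.44 in WT 1 to WT 4 and -2.04, -2.55, -2.74 and -2.70 in PKR2 1 to PKR2 4, with WT 2 not well above background. Probe 2 (chr7:100373382-100373441) read 0.66, -0.36, -0.89 and 0.09 in WT and 0.65, 0.13, -0.17 and -0.03 in PKR2 hearts. On both probes WT 1 and PKR2 1 were the highest hearts and WT 3 the lowest. The groups overlapped, with differences of 0.17 (interval -0.46 to 0.79) and 0.27 (interval -0.45 to 0.99). Across the 8 hearts these probes of 1 gene correlated at r = 0.965. Probe 3 (chr7:100375063-100375122) was not well above background on any array and ran from -6.37 to -4.07. Among 7 tested relatives of the uncoupling proteins in the same carrier family, 3 had a lower and 4 a higher mean in PKR2 hearts, with a median of 0.04, and none had an unadjusted p under 0.05 (nor an adjusted one, by limma). The 4 of smallest p were Slc25a14 (-0.19), the dicarboxylate carrier Slc25a10 (-0.20), Slc25a30 (0.19) and the ADP/ATP carrier Slc25a5 (0.066).

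**Figure D2:**
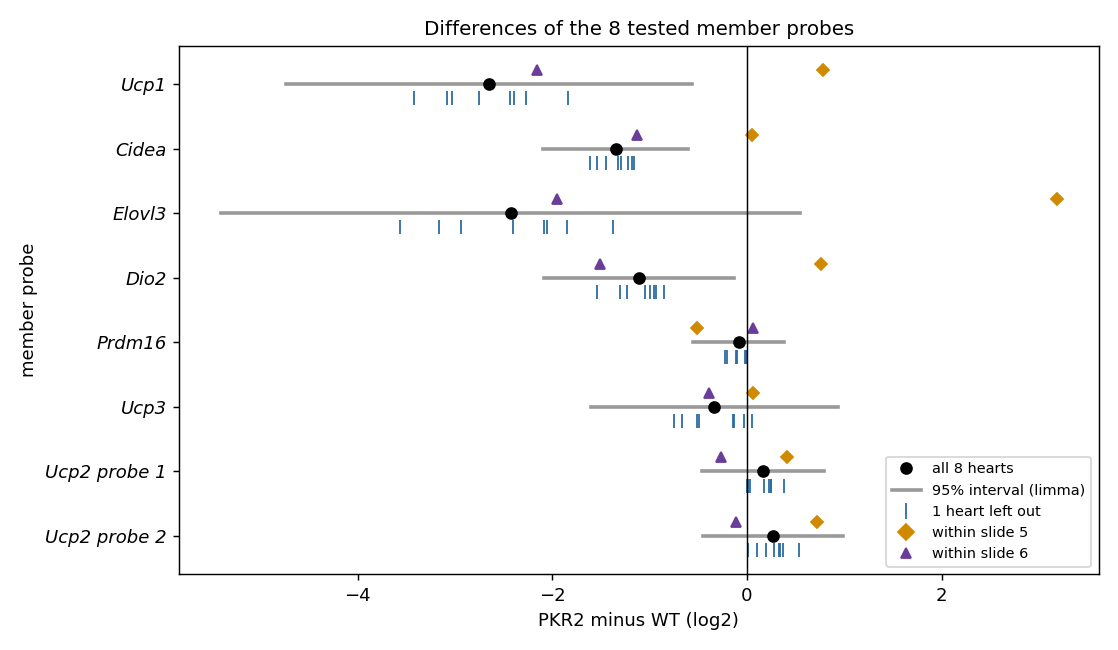
The horizontal axis is PKR2 minus WT on the log2 scale for the 8 tested probes; black points use all 8 hearts, grey bars are limma's 95% intervals, blue ticks leave out 1 heart at a time, and diamonds and triangles are the values within slides 5 and 6. The intervals of Ucp1, Cidea and Dio2 lie below 0, that of Elovl3 reaches 0.55, and within slide 5 Ucp1, Cidea, Elovl3 and Dio2 were all above 0.

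The hearts were ordered alike by Ucp1, Elovl3, Cidea and Dio2. PKR2 1 and PKR2 2 took the lowest places for all 4 genes, and WT 1 and WT 4 were among the highest 3 hearts for each. Within WT, WT 3 was the lowest for all 4. Among the other 3 tested genes the order differed: WT 1 was highest for Ucp2 and Ucp3 and lowest for Prdm16. The relations between genes were computed with 1 probe per gene, 28 in all including a general adipocyte score described below.

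**Figure D3:**
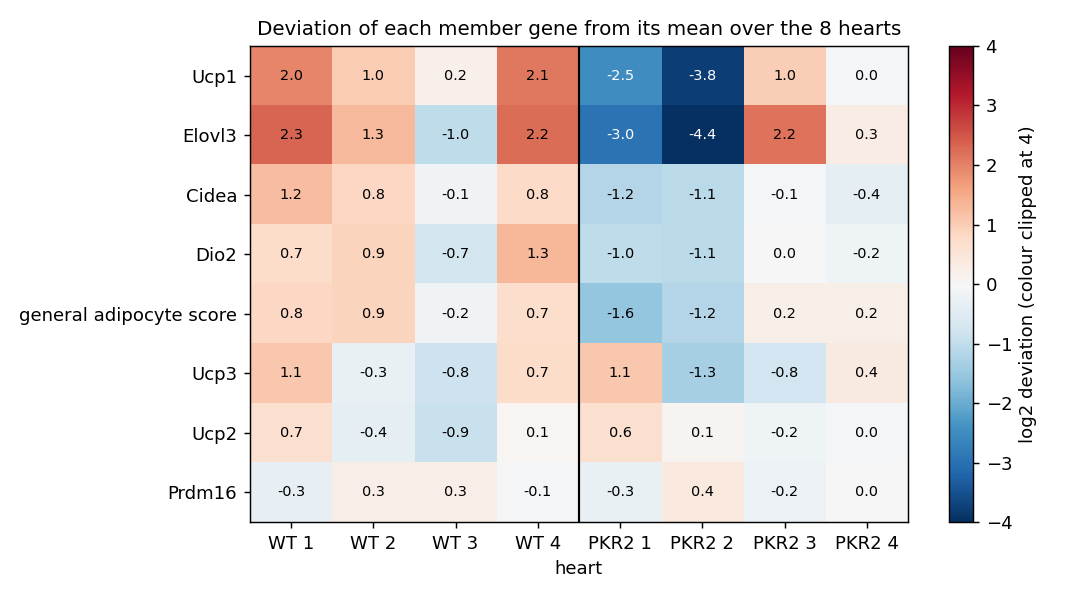
Rows are the 7 tested genes and the general adipocyte score, columns the 8 hearts, and each cell gives the log2 deviation from the row's mean, with colour clipped at 4. PKR2 1 and PKR2 2 are low for Ucp1, Elovl3, Cidea, Dio2 and the score, but PKR2 1 is high for Ucp3 and Ucp2.

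For 15 relations all 8 hearts were used. Cidea and Dio2 correlated at Pearson's r = 0.908 (exact permutation p = 0.0043, adjusted over 15 p = 0.0363) and Spearman's rho = 0.857 (exact p = 0.0107, adjusted 0.0536). Cidea and Elovl3 gave r = 0.859 (exact permutation p = 0.0073, adjusted 0.0363) and rho = 0.881 (exact p = 0.0072, adjusted 0.0536), and Elovl3 and Dio2 r = 0.871 (exact permutation p = 0.0055, adjusted 0.0363) and rho = 0.881 (exact p = 0.0072, adjusted 0.0536). These 3 passed by r and none of the 15 passed by rho. Leaving out the 2 hearts farthest from the median of the first gene gave r = 0.921, 0.808 and 0.785. With deviations from the group means in place of levels they were 0.859, 0.893 and 0.826. Such deviations sum to 0 within each group, so pairings over all 8 hearts give no exact p for them. Whether these relations passed without the group difference was therefore not judged. Elovl3 in PKR2 2 was not well above background; leaving out 1 heart at a time gave r from 0.816 to 0.930 with Cidea and from 0.837 to 0.923 with Dio2. With normexp background correction none of the 15 passed. No other relation of the 15 passed. Those farthest from 0 were Ucp3 with Prdm16 (r = -0.722, exact p = 0.0594, adjusted 0.186; rho = -0.81) and Ucp2 with Ucp3 (r = 0.679, exact p = 0.0642, adjusted 0.186; rho = 0.62). No slide or scan range held 6 hearts, too few to compute a relation within one.

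Ucp1 and the adipocyte score each set PKR2 1 and PKR2 2 apart by a gap of over 40% of their range (41.5% and 41.2%). The widest gap of Elovl3 set the same hearts apart but was 29.2% of its range, so its relations with genes other than Ucp1 kept all 8 hearts. Which relations fell to which kind thus depends on this cut. Relations of Ucp1 and of the score are given over the other 6 hearts, and were added after the data were seen. There Ucp1 correlated with Cidea at r = 0.857 (exact permutation p = 0.0458; rho = 0.83), with Dio2 at 0.851 (exact p = 0.0458; rho = 0.89) and with Elovl3 at 0.834 (exact p = 0.0556; rho = 0.83). Of the 13 relations of this kind 4 had an unadjusted exact p under 0.05 by r and none had one after adjustment (smallest 0.144). Genes whose pattern over all 8 hearts was most like that of Ucp1, among 14005 named features and as a description, were Slc27a2, a very long chain acyl-CoA synthetase (r = 0.979), BC020489 (0.977), the proton channel gene Otop1 (0.977), Snx10 (0.975), Aspa, which encodes aspartoacylase (0.974), and Crym (0.972). These values include PKR2 1 and PKR2 2, which lie apart for Ucp1, and in 1 or both of them Slc27a2, BC020489 and Otop1 were not well above background. BC020489 was well above background on only 5 arrays, and not in WT 2, PKR2 2 and PKR2 4. The genes most like Ucp2 were Neat1, Ncln, 2310033P09Rik, Cd83, Ankzf1 and Pmm2 (r from 0.965 to 0.980). Those most like Ucp3 were Frat1, Ezh2, Bcl6b, Pcdhga7, the circadian repressor gene Nr1d1 and Adamts15 (0.970 to 0.988).

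As an average, general adipocyte genes were low in the same hearts. A score averaging 12 tested adipocyte genes, none of them among the 8 described here, was 0.82, 0.89, -0.16 and 0.69 in WT 1 to WT 4 and -1.56, -1.16, 0.25 and 0.23 in PKR2 1 to PKR2 4. PKR2 1 and PKR2 2 were lowest and WT 3 lowest within WT, as for Ucp1. The groups differed by -1.12 (exact permutation p = 0.0857). Of the 12 genes 11 had a lower mean in PKR2 hearts (median -0.75; 51.9% of all features were lower), 6 with an unadjusted p under 0.05 (2.32% of all features) and none after adjustment. On slide 5 the list's median was 0.42, on slide 6 -0.44, and the fixed slide block gave -0.071. Not all genes in the score followed its order of hearts. Plin4 was highest in PKR2 2 (6.97, WT mean 6.43), and Lpl was 8.55 there (WT mean 8.34). Acsl1 was 3.41 in PKR2 1 (WT mean 3.06). Plin4, Lpl and Acsl1 were chosen for mention after their values were seen. The 4 of smallest p were the glycerol channel Aqp7 (-0.55), Plin1 (-2.18), the droplet protein Cidec (-2.36) and the adipokine Adipoq (-2.35), whose level was -0.28 in PKR2 1 and -0.54 in PKR2 2 against 2.34 to 4.33 in the other hearts. Over the 6 other hearts the score correlated with Dio2 at r = 0.919 (exact permutation p = 0.0236, not under 0.05 after adjustment), with Cidea at 0.878 (exact p = 0.0444) and with Ucp1 at 0.745 (exact p = 0.124). With the score as a covariate the differences became -0.48 for Ucp1, -0.60 for Cidea, -0.19 for Dio2 and 0.81 for Elovl3. The part of adipose tissue in these differences was not tested beyond these values.

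**Figure D4:**
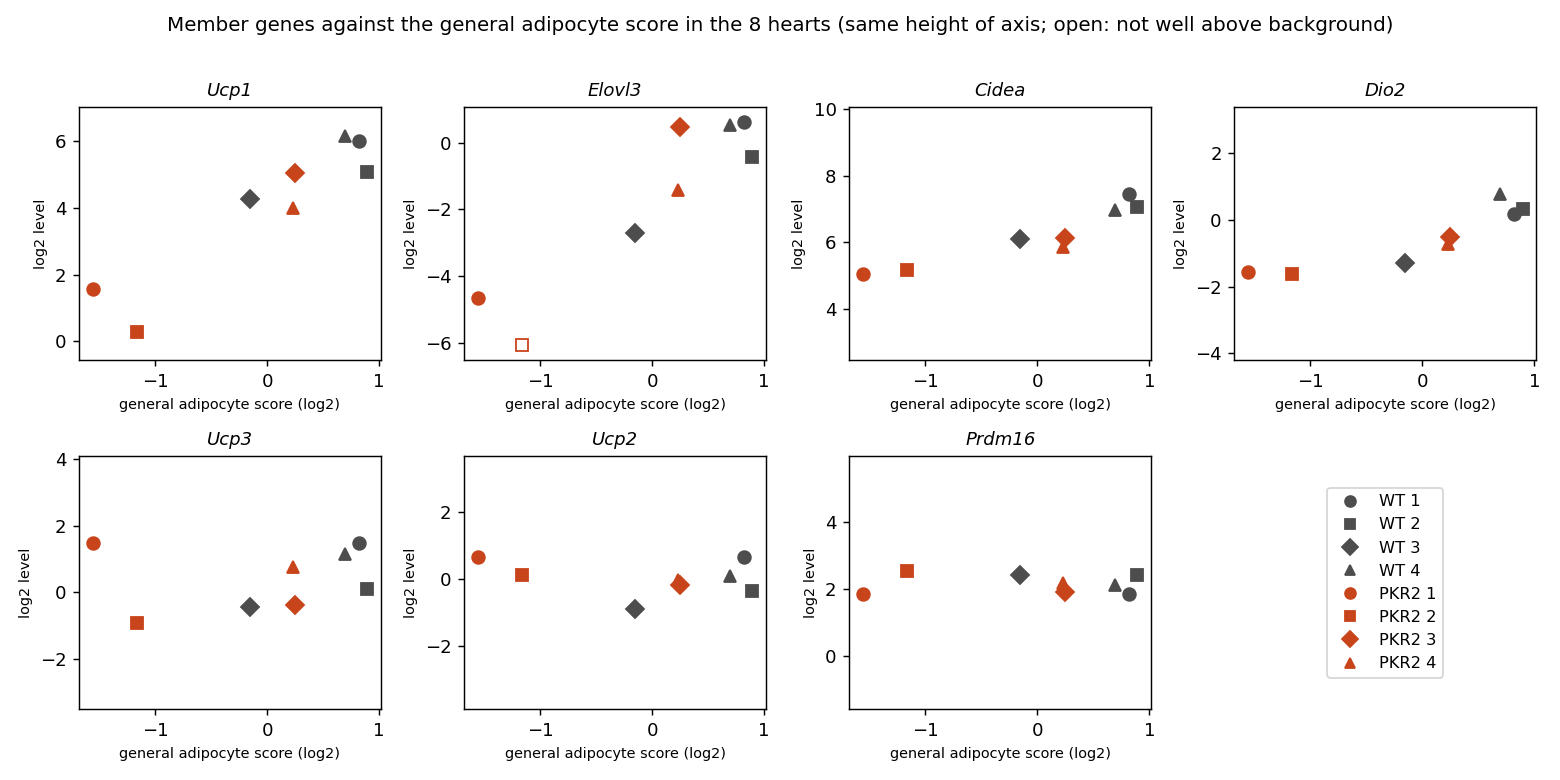
Each panel plots the log2 level of 1 gene (vertical; every axis spans the same height) against the general adipocyte score (horizontal, log2) in the 8 hearts, open where the probe was not well above background. PKR2 1 and PKR2 2, at scores of -1.56 and -1.16, lie apart at the left and are low for Ucp1, Elovl3, Cidea and Dio2, while Prdm16 is nearly level.

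Other brown fat effector genes differed in how far they varied between hearts. Of 18 tested, 12 had a lower and 6 a higher mean in PKR2 hearts, where 51.9% of all features were lower. The median was -0.16 (0.084 within slide 5 and -0.22 within slide 6). Of the 18, 5 had an unadjusted p under 0.05, against 2.32% of all features, and none an adjusted one. These 5 include Otop1, which passed the detection filter only through the WT group, so the count leans towards lower values there. Slc27a2 was 1.2, 0.03, -1.47 and 0.16 in WT 1 to WT 4 and -3.58, -5.80, -0.78 and -1.69 in PKR2 1 to PKR2 4, a difference of -2.94, with PKR2 2 not well above background. Letmd1, a mitochondrial protein gene needed for brown fat thermogenesis, differed by -1.24, Nrg4, a secreted factor of brown fat, by -1.18 and Mpzl2 by -1.04. Otop1 was well above background in all 4 WT hearts but not in PKR2 1 and PKR2 2, so it was tested through the WT group alone and its fitted difference of -2.23 rests on those dim signals. Cox7a1 and Cox8b, cytochrome oxidase subunits of brown fat, heart and muscle, spanned 0.93 and 1.12 log2 units over the 8 hearts, against 4.78 for Slc27a2 and 2.50 for Otop1 over the hearts where these were well above background. Cox7a1, Cox8b, Plin5 and Slc6a8 were chosen for mention after their values were seen. Plin5, a droplet protein of oxidative tissue, spanned 0.71.

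**Figure D5:**
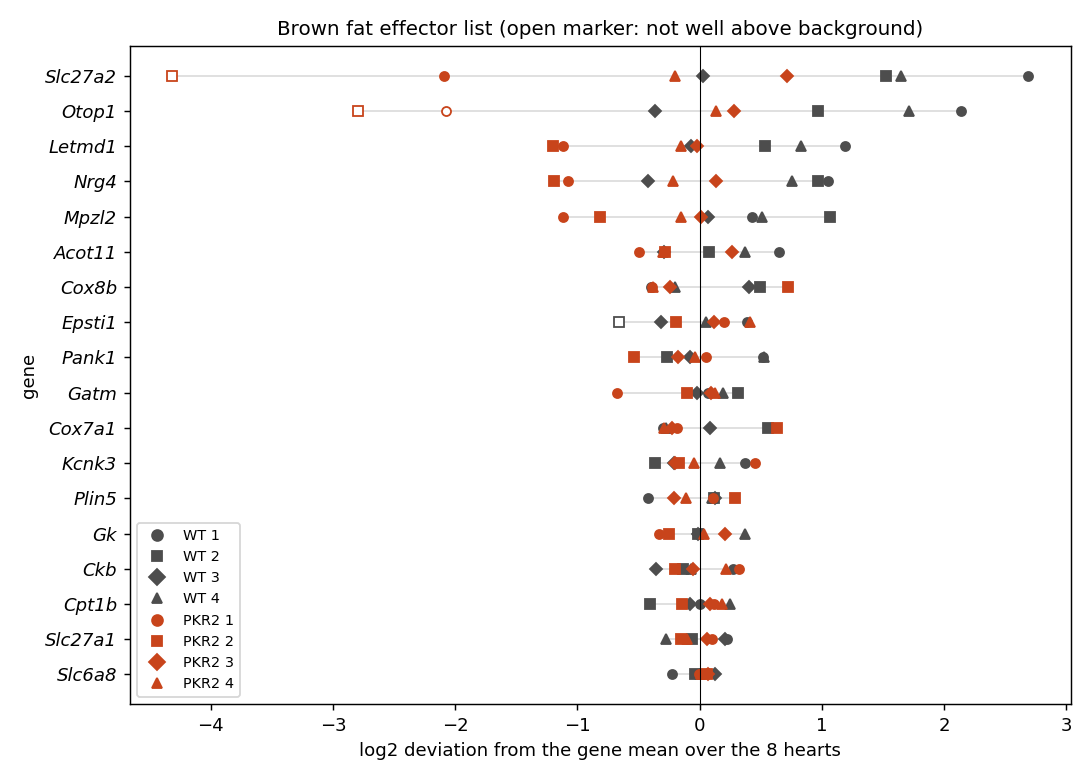
Rows are the 18 tested genes of the brown fat effector list ordered by range, and markers give each heart's log2 deviation from the gene's mean over the 8 hearts (open where the probe was not well above background). Slc27a2, Otop1, Letmd1, Nrg4 and Mpzl2 are lowest in PKR2 1 and PKR2 2, whereas genes such as Cox7a1, Plin5 and Slc6a8 span 0.93, 0.71 and 0.36 log2 units.

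Genes around the other members were measured too. Over all features with 1 probe per gene, 51.9% had a lower mean in PKR2 hearts and 2.32% an unadjusted p under 0.05. In the ELOVL and CIDE families 5 genes were tested, 4 lower and 1 higher in PKR2 hearts (median -0.19, with 0.38 within slide 5 and -0.59 within slide 6). They included Cidec (-2.36), the elongases Elovl6 (-1.85) and Elovl5 (-0.19), and Cideb (0.13). Among 10 tested genes of thyroid hormone handling and response, 7 had a lower and 3 a higher mean (median -0.02). The 1 with an unadjusted p under 0.05 was Myh7, the slow myosin heavy chain repressed by thyroid hormone, at 5.77 ± 0.16 in WT and 6.46 ± 0.28 in PKR2 hearts (0.69). The lipogenic gene Thrsp differed by -0.92 and the transporter gene Slc16a10 by -0.054. The deiodinase genes Dio1 and Dio3 were each well above background on 1 array. Of 14 tested PPAR alpha targets of heart, a class that includes fatty acid oxidation genes, 7 were lower and 7 higher (median 0.01). Angptl4, a secreted inhibitor of lipoprotein lipase, differed by -1.35, while the oxidation genes Acadl, Cpt1b and Hadhb differed by -0.20, 0.12 and 0.10. Of 10 beige and white fat genes only 4 were tested, Tcf21 (0.26), Cited1 (0.14), Tbx1 (-0.15) and Agt (-0.11), and the beige marker Tmem26 was not well above background on any array.

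Markers of other cell types had small median differences. The median difference was 0.00 for 6 atrial genes, 0.05 for 5 tested of 10 skeletal muscle genes, -0.07 for 11 macrophage and leukocyte genes and -0.06 for 8 endothelial genes, and none of these had an unadjusted p under 0.05. All 8 mesothelial markers had a lower mean in PKR2 hearts (median -0.27), against 51.9% of all features. None of the 8 had an unadjusted limma p under 0.05. The 2 hearts of slide 5 gave these markers a median difference of 0.10, and those of slide 6 gave -0.19. The mesothelial score was lowest in PKR2 1 (-0.47) and PKR2 2 (-0.32), the hearts with the lowest Ucp1. Msln, which defines mesothelium, was 3.42 ± 0.23 in WT and 3.12 ± 0.40 in PKR2 hearts. Msln did not follow the score in both of these hearts: it was lowest in PKR2 1 (2.66) but above the WT mean in PKR2 2 (3.61). The part of mesothelial tissue in the result was not tested.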

How the data were processed

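Heart RNA of 4 WT and 4 PKR2 mice was labelled with Cy3, per the labels' protocols. The deposited values are spot intensity, background-subtracted and detrended by Agilent Feature Extraction 9.5.1.1, per the file headers. The authors' deposited value table, also linear intensity, was already normalized between arrays (the method is not given in the sources used here) and served as an alternative; its column medians were 139 to 144, and its scale and direction were read as linear and uncentred.

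The members, gene lists and tests were chosen with earlier results of these data known. Control spots and outlier-flagged spots were left out, and processed signal was taken to log2 minus each array's 75th percentile over non-control probes. A probe was tested where well above background on at least 3 of 4 arrays of 1 group or more (22717 of 41174 probes; 97 further detected probes had no unflagged spot on some array). WT and PKR2 were compared without covariates by limma (version 3.58.1, R 4.3.3), adjusted by Benjamini-Hochberg over all tested probes at 0.05, and tested on simulated data. Single values were tested by two-sided exact permutation over 70 relabelings, and correlations over all pairings. Lists used 1 probe per gene, the brightest, named through a RefSeq table of GRCm38.p6. Some lists share genes. Plin1, Lipe, Cidec and Thrsp are general adipocyte genes that each stand on another list too. Named genes are all members, the 4 genes of smallest p in each list, the 6 genes most like each of Ucp1, Ucp2 and Ucp3, and defining markers; any other is said to be so, and a gene that the rule names is not reported here. Correlations over 6 hearts were added after the data were seen.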

Additional observations from a re-analysis of the deposited data

How the results depend on the processing

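No adjusted call depended on the setting for these genes, since none passed under any of the 23 refits. Ucp1, Cidea and Dio2 kept a lower mean in PKR2 hearts in 23 of 23, Elovl3 in 19 of 22, and leaving out single hearts gave -3.42 to -1.84 for Ucp1, -1.62 to -1.16 for Cidea, -3.56 to -1.38 for Elovl3 and -1.54 to -0.85 for Dio2, -0.75 to 0.050 for Ucp3, 0.0059 (without WT 3) to 0.38 (without WT 1) and 0.014 to 0.53 (the same hearts) for Ucp2 probes 1 and 2, and -0.22 to 0.0053 for Prdm16. Signs changed for the following, and the cause was not tested. With normexp Ucp2 probe 1 was -0.21 and Prdm16 0.066. A fixed slide block, resting on slides 5 and 6 alone, gave Elovl3 0.62, and the adipocyte covariate gave it 0.81. With array position, which sets the PKR2 arrays against WT 1 alone, the Ucp2 probes were -0.48 and -0.52 and Prdm16 0.28. With array weights Ucp3 was 0.059 and Elovl3 0.14, and Ucp1 moved to -0.86, Cidea to -0.78 and Dio2 to -0.42. Without PKR2 1 Prdm16 was 0.0053, and without PKR2 2 Ucp3 was 0.050. Within slide 5 Ucp1 was 0.78, Ucp3 0.064, Cidea 0.047, Elovl3 3.18 and Dio2 0.76, and 1 of 8 probes was lower in place of 6. Within slide 6 the Ucp2 probes were -0.26 and -0.11 and Prdm16 0.063. Over all tested probes the count called was 1 with probes above background on all 8 arrays, with slide as a random block or with trended robust variance, 4 with array position, and 0 to 1 when single hearts were left out (1 without PKR2 3), against 0. With normexp 0 relations between genes passed, against 3. The labels carry no replicate numbers, so hearts were paired only by slide, as above. Adrb3, Ucp2 probe 3, Otop1 in PKR2 1 and PKR2 2, and Elovl3 and Slc27a2 in PKR2 2 were limited by signal over background.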

Other observations

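Ppargc1a, the coactivator that drives mitochondrial biogenesis, was chosen for mention after its values were seen. It was 2.59, 3.92, 4.32 and 3.53 in WT 1 to WT 4 and 2.45, 4.16, 3.63 and 3.41 in PKR2 1 to PKR2 4. It was lowest in WT 1 and PKR2 1, the hearts with the highest Ucp3 and Ucp2, and its r with Ucp3 over the 8 hearts was -0.875, against -0.088 with Ucp1. The relation was not particular to Ppargc1a. On the same regulator list r with Ucp3 was -0.919 for Ppara and -0.884 for Foxc2, and in the other direction 0.886 for Klf11. Nor was it particular to regulators of brown fat. Among endothelial markers r with Ucp3 was 0.900 for Tek and -0.880 for Flt1, and for the cardiomyocyte marker Ryr2 it was -0.867. Ppara, Foxc2, Klf11, Tek, Flt1 and Ryr2 were also chosen after their values were seen. This is a description over 8 hearts, of genes picked among many, with no test.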
